A study of Mus musculus with 37 samples.

Results

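The genes described are those of the proteasome, taken as every row of an expression table of mouse cerebellum whose symbol starts with Psm, a letter from a to g and a digit. Of 29955 gene symbols 49 matched. They fall into 7 alpha and 7 constitutive beta subunits of the core, 3 inducible beta subunits that make the immunoproteasome, 2 tissue-restricted core subunits, 6 ATPases and 11 other subunits of the regulatory particle, 4 activators, 1 inhibitor and 7 assembly chaperones. The remaining match, Psmc3ip, shares the symbol only. It encodes a meiotic recombination protein and is not a subunit.

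The study asks what loss of MLL4, a methyltransferase of lysine 4 of histone H3, does in the mouse brain. WT libraries came from cerebellum of floxed Mll4f/f mice of strain C57BL/6, and KO libraries from cerebellum of Mll4 BSKO mice, read here as a brain-specific knockout of the floxed gene. Each genotype had 3 RNA libraries at 1 month of age and 1 library at 4 months. Both genotypes carry the floxed allele, and the Cre line that removes it is not given in the sources used here. Nothing in the labels ties the libraries to separate animals, so every p-value reflects the spread among libraries, and that spread may be technical. Values are FPKM, fragments scaled by transcript length and by library size, so levels can be compared between genes.

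The proteasome is the protease that breaks down proteins tagged with ubiquitin. Its core is a stack of rings, in which the outer rings are made of alpha subunits and the inner rings of beta subunits. Only 3 kinds of beta subunit cut proteins, and they are encoded by Psmb5, Psmb6 and Psmb7. A regulatory particle sits on the core, with a ring of ATPases that unfolds the substrate (Psmc1 to Psmc6). The Psmd genes other than Psmd5, Psmd9 and Psmd10 encode further subunits of it, some of which bind or remove ubiquitin. Under interferon signalling, and in immune cells at rest, Psmb8, Psmb9 and Psmb10 take the places of Psmb5, Psmb6 and Psmb7, which changes the peptides offered to MHC class I. In neurons the constitutive form prevails.

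Libraries differed in ways that bear on every result. Mll2, read as the targeted gene under its older symbol, stood at 18.2, 19.9 and 22.3 FPKM in WT at 1 month and at 12.7 and 13.6 in KO replicates 1 and 2. In the library labelled KO replicate 3 it stood at 23.5, above every WT library of 1 month, which for this gene goes against the label. At 4 months it stood at 46.6 in WT and 16.6 in KO. Markers of granule neurons, the main neuron of the cerebellum, summed to between 1302 and 1346 FPKM in WT at 1 month and to between 199 and 886 in KO. Purkinje cell markers summed to between 1884 and 2357 in WT and between 488 and 1355 in KO, and brainstem markers to between 2.96 and 28 in WT and between 55.4 and 83.0 in KO. In whole tissue, fewer cells of a type and less RNA per cell cannot be told apart. Depth relative to WT replicate 1 was estimated at 0.732 to 1.20, lowest in WT replicate 3 (0.732) and in the library labelled KO replicate 3 (0.768). Red blood cell markers summed to 152 FPKM in WT replicate 3, against 16.1 and 18.3 in WT replicates 1 and 2. In the library labelled KO replicate 3 they summed to 330, against 44.6 and 52.9 in KO replicates 1 and 2. The part of depth and of blood in the members' values was not tested.

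Promoters are shown for the inducible subunits Psmb8 and Psmb9, for the activator Psme1, for the constitutive counterpart Psmb5, and for Psmc5 and Psmd12, which had the largest positive differences among the regulatory subunits at 1 month. Each runs from 200 bases before to 20 bases after the RefSeq start, 5′ to 3′ on the strand of the gene, in build GRCm38.p6, and the capitals mark 1 motif match named after the sequences. The intervals are chr17:34197995-34198214 on the plus strand for Psmb8, chr17:34187311-34187530 on the minus strand for Psmb9 and chr14:55578294-55578513 on the plus strand for Psme1. They are chr14:54617976-54618195 on the minus strand for Psmb5, chr11:106255985-106256204 on the plus strand for Psmc5 and chr11:107479328-107479547 on the plus strand for Psmd12.
Psmb8: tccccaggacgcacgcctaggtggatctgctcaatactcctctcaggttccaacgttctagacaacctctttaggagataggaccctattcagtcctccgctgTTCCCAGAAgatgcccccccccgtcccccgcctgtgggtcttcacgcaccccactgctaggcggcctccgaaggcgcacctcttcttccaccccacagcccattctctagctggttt
Psmb9: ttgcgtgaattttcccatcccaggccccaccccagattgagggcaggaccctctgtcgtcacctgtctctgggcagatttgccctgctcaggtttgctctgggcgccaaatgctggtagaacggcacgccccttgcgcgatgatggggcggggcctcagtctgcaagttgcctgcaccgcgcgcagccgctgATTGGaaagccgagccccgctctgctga
Psme1: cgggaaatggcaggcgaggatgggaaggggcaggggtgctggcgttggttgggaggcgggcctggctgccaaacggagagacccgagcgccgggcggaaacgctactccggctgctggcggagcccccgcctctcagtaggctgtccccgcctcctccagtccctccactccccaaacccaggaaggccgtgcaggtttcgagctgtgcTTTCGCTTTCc
Psmb5: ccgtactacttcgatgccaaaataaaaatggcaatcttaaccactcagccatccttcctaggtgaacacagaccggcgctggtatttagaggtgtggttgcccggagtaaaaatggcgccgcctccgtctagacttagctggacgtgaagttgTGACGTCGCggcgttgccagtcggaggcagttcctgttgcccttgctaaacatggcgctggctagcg
Psmc5: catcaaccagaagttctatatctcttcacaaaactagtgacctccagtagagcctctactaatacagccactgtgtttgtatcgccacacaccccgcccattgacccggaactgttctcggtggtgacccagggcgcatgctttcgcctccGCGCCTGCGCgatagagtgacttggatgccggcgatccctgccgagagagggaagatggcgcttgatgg
Psmd12: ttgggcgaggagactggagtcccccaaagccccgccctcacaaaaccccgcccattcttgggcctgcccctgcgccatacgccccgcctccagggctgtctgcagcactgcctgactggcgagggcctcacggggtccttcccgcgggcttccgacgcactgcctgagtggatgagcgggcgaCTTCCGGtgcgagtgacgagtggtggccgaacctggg
The capitals mark a gamma-activated site type (TTCNNNGAA) in Psmb8 and a CCAAT box on the minus strand in Psmb9. They mark an interferon-stimulated response element type (GAAA and GAAA with 2 bases between) on the minus strand in Psme1, an antioxidant response element type (TGACNNNGC) in Psmb5, an NRF1 type (GCGC and GCGC with 2 bases between) in Psmc5 and an ETS type (CCGGAAG) on the minus strand in Psmd12. NRF1 here stands for nuclear respiratory factor 1, and Nfe2l1, named below, is a different gene. A match to letters describes the window only and shows no binding.

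Across the 44 promoter entries of 41 members, the promoters of this protein machine shared some letters more often than promoters at large. Windows ran from 250 bases before the start and were 300 bases long, both strands were searched, and all 32851 promoter entries served as the background. This background was not narrowed to widely expressed genes, so the shares are not shown to be particular to the members. The ETS type was in 16 entries of members (36.4%), with Psmc3ip, which is no subunit, included, against 8.86% of all promoters. The GC box (GGGCGG) was in 24 (54.5%) against 35.7%, and the NRF1 type and the YY1 type (AAGATGG) were each in 7 (15.9%) against 6.23% and 6.34%. Matches to different motifs were counted separately and may overlap. The interferon-stimulated response element type was in 5 (11.4%) against 3.44%. These were Psmd4, Psmd9, Psmb3, Psmg4 and Psme1, and not Psmb8, Psmb9 or Psmb10. Closer to the background were the gamma-activated site type in 3 (6.82% against 8.3%), the antioxidant response element type in 6 (13.6% against 12.4%), the CCAAT box in 15 (34.1% against 37.4%) and the NF-kappa-B type (GGGA and CC with 4 bases between) in 10 (22.7% against 20.7%). Members without an entry were Psma8, Psmb1, Psmb2, Psmb7, Psmc3, Psmd3, Psmd7 and Psmg2.

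Some members lie side by side in the annotation. Psmb9 and Psmb8 are separated by Tap1 alone, which encodes a subunit of the transporter that carries proteasome products to MHC class I. The promoter windows of Psmb9 and Tap1 share 275 bases on opposite strands. Psme1 and Psme2, the subunits of the PA28 activator, are separated by Emc9, and Psmb5 and Psmb11 have no protein-coding gene between them. The strand setting of the quantification is not given in the sources used here, so reads of overlapping neighbours could be shared. The annotation also holds 6 pseudogenes named after members (Psma5-ps, Psmb5-ps, Psmb6-ps, Psmb6-ps2, Psmb7-ps1 and Psmb7-ps2), which could split reads with Psma5, Psmb5, Psmb6 and Psmb7, so the levels of those genes are uncertain.

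In WT cerebellum at 1 month most constitutive subunits were abundant, the inducible Psmb8 and Psmb9 stood near 1 FPKM, and the inducible Psmb10 stood above Psma5, Psma3 and Psmb3, the lowest of the constitutive core. The median of mean FPKM was 44.7 over the 7 alpha subunits, 55.8 over the 7 constitutive beta subunits, 52.7 over the 6 ATPases and 36.6 over the 11 other regulatory subunits. The most abundant member was the ATPase gene Psmc5 at 85.3 ± 10.6 FPKM, followed by the beta subunit gene Psmb4 at 78.8 ± 7.74 (SD, n = 3). These 2 levels lie within 1 SD of each other. Below the rest of their rings stood Psma5 at 3.44 ± 0.671, Psma3 at 6.81 ± 0.287 and Psmb3 at 7.32 ± 1.35, although each ring of the assembled core holds its subunits in equal number.

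Most inducible and accessory members were below those medians. Psmb10 stood at 8.51 ± 1.20 FPKM, Psmb8 at 1.12 ± 0.687 and Psmb9 at 0.831 ± 0.266 in WT at 1 month (SD, n = 3), and the last pair lay within 1 SD of each other. Among activators, Psme4 (PA200, which caps the core without ubiquitin) stood at 31.2 ± 6.15 and Psme3 (PA28 gamma, a nuclear activator) at 22.4 ± 2.75. The interferon-inducible Psme1 stood at 6.96 ± 0.922 and its partner Psme2 at 0.423 ± 0.117. The annotation lists a second copy, Psme2b, so the value of Psme2 may miss reads. The inhibitor gene Psmf1 stood at 10.9 ± 0.589, and assembly chaperones ranged from 5.57 for Psmd10 to 20.9 for Psmd5.

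A few members were too low to be tested, with a mean under 1 FPKM in the fits. Psma8, the testis form of an alpha subunit, ranged from 0.0808 to 0.482 FPKM over the 8 libraries. Psmb11, the catalytic subunit of the thymus proteasome, was listed at 0 in 5 libraries and was 0.0659 FPKM at most. With Psmb9 and Psme2 these made 4 untested members and left 45 tested.

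The first comparison set KO against WT at 1 month. In limma, with p-values adjusted by Benjamini-Hochberg over 14847 genes, 0 members passed 0.05, where 0.0269% of all genes did. At an adjusted p under 10%, 1 member passed, the higher Psme1, where 16% of all genes passed and 7.97% passed as higher. At an unadjusted p under 0.05 there were 8 members, all higher in KO, where 14% of all genes were higher and 17.2% lower. Fold changes were positive in 33 members and negative in 12, with a median log2 of 0.10 against -0.04 for all genes, of which 44.8% were positive and 55.2% negative. The shift was not particular to the members. Genes of respiratory complex I were positive in 32 of 42 tested, with a median of 0.11. Ribosomal protein genes were positive in 50 of 64 tested, with a median of 0.24. Both lists were chosen after seeing the data. Groups did not overlap in 7 members as higher and in 4 as lower, where 15.2% and 20.5% of all genes did so.

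**Figure D1:**
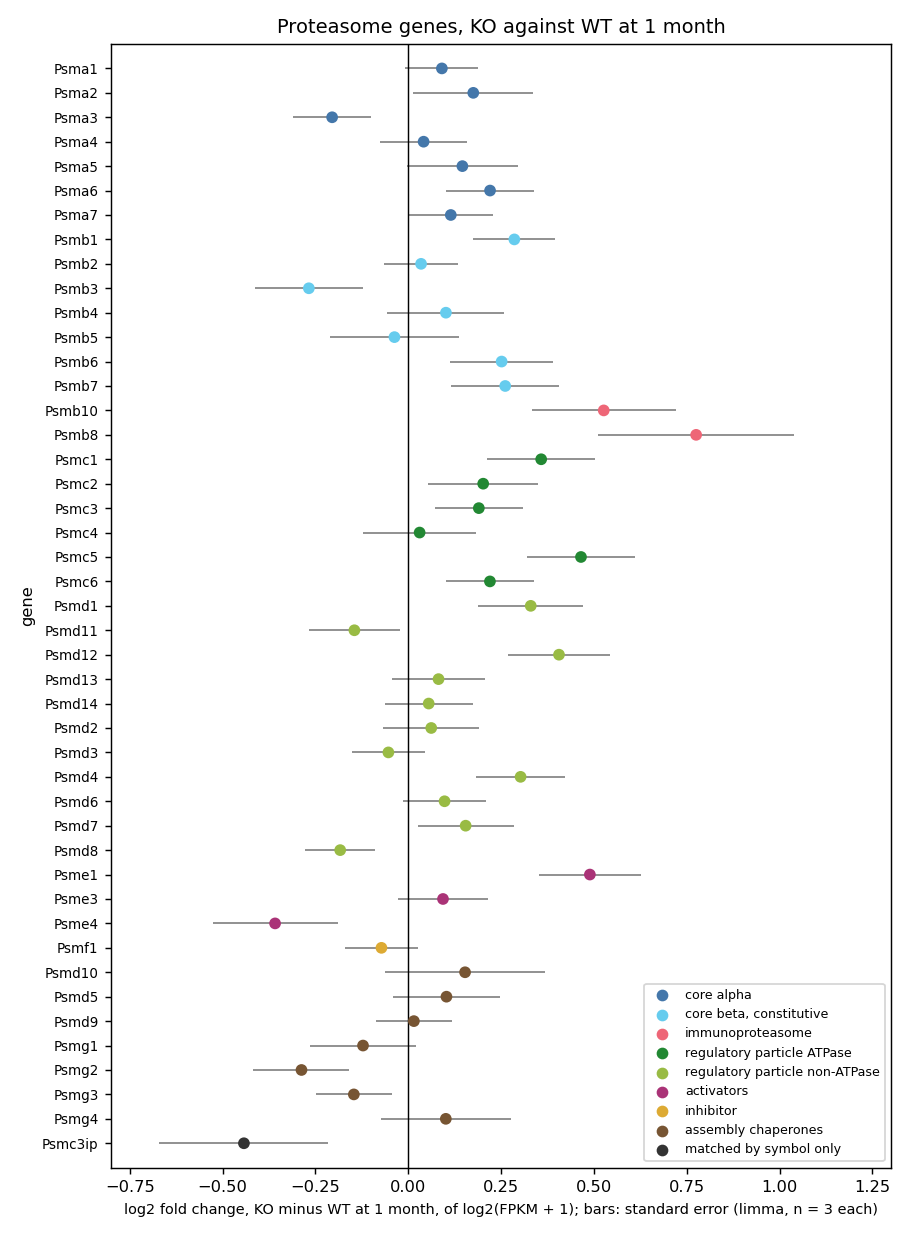
Log2 fold change of KO against WT at 1 month for the 45 tested members, with standard errors from limma (n = 3 per group), coloured by role. Psmb8 (0.78), Psmb10 (0.53) and Psme1 (0.49) lie farthest to the right and Psmc3ip (-0.44) and Psme4 (-0.36) farthest to the left.

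The 3 KO libraries were not alike. Set against the WT mean, the median member was higher by 0.20 on the log2 scale in KO replicate 1 and by 0.20 in KO replicate 2. In the library labelled KO replicate 3 it was at -0.0028, within the range of the WT libraries, which ran from -0.07 in replicate 3 to 0.04. Granule neuron markers summed to 203 and 199 FPKM in KO replicates 1 and 2 and to 886 in that library, all below the WT range. What part cell makeup has in the members' values was not tested.

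Alpha subunits of the core showed 6 positive and 1 negative fold change at 1 month, with a median log2 of 0.11 and 0 past either threshold. Psma6 was the farthest up at 0.22 (SE 0.12). Psma3 was the lowest at -0.21 (SE 0.11). Its FPKM values were 6.49, 7.05 and 6.89 in WT and 6.37, 5.64 and 5.34 in KO, so the groups did not overlap, by a gap smaller than the spread within KO.

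Constitutive beta subunits gave 5 positive and 2 negative fold changes. Psmb1, a structural subunit, had FPKM values of 54.3, 55.4 and 57.8 in WT and of 74.1, 69.6 and 61.6 in KO. Every KO library was above every WT library, with a log2 fold change of 0.29 (SE 0.11; adjusted p = 0.139, limma). Of the genes that cut, Psmb6 and Psmb7 had fold changes close to that of Psmb1, and Psmb5 lay nearer to WT.

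Psmb5, the chymotrypsin-like subunit, had 22.6, 23.1 and 23.6 FPKM in WT and 23.0, 28.2 and 17.4 in KO. The KO libraries lay on both sides of WT, and the log2 fold change was -0.04 (SE 0.17; adjusted p = 0.901, limma), turning to 0.03 when libraries were shifted to 1 median or quantile normalized and to 0.14 without the library labelled KO replicate 3. Psmb6, the caspase-like subunit, had 64.7, 60.7 and 49.4 FPKM in WT and 76.5, 66.7 and 64.6 in KO. Its groups overlapped only through 64.6 against 64.7 FPKM, and the log2 fold change was 0.25 (SE 0.14; adjusted p = 0.257, limma). Psmb7, the trypsin-like subunit, had 58.1, 57.6 and 73.7 FPKM in WT and 81.2, 79.7 and 66.2 in KO. WT replicate 3 stood inside the KO range, and the log2 fold change was 0.26 (SE 0.15; adjusted p = 0.260, limma).

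All 6 ATPases of the regulatory particle had positive fold changes, from 0.03 for Psmc4 to 0.47 for Psmc5, with a median of 0.21 and none past a threshold. Psmc5 had 87.1, 94.8 and 73.9 FPKM in WT and 128, 125 and 101 in KO. Every KO library lay above every WT library, with means of 85.3 ± 10.6 and 118 ± 14.6 (SD, n = 3 each). The adjusted p was 0.101 (limma, SE 0.15). Psmc1 had 36.9, 39.8 and 31.0 FPKM in WT and 50.4, 48.9 and 39.7 in KO. Its library labelled KO replicate 3 lay just under WT replicate 2, and the log2 fold change was 0.36 (SE 0.15; adjusted p = 0.153, limma).

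Other regulatory subunits gave 8 positive and 3 negative fold changes, with a median log2 of 0.08. Psmd12, which helps build the lid, had 35.5, 35.2 and 31.2 FPKM in WT and 51.0, 47.3 and 38.4 in KO. The groups did not overlap, with a log2 fold change of 0.41 (SE 0.14; adjusted p = 0.113, limma). The same held for Psmd1, a large scaffold subunit (0.33, SE 0.14), and for the ubiquitin receptor gene Psmd4 (0.30, SE 0.12). Psmd8 lay the other way, at 52.5, 51.5 and 52.6 FPKM in WT and 47.9, 44.6 and 45.1 in KO. All 3 KO libraries were below WT, at a log2 of -0.18 (SE 0.09; adjusted p = 0.228, limma). Psmd14, which removes ubiquitin from substrates, was near WT at 0.06 (SE 0.12).

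Psmb8 and Psmb10 had the largest positive fold changes of the 45 tested members, from low levels. Psmb8 had 1.41, 1.62 and 0.340 FPKM in WT and 2.85, 2.63 and 2.04 in KO at 1 month. Each KO library was above each WT library, and WT replicate 3 stood well below the others. The means were 1.12 ± 0.687 and 2.50 ± 0.419 (SD, n = 3 each), the log2 fold change of log2(FPKM + 1) was 0.78 (SE 0.26) and the adjusted p was 0.115 (limma). On this scale the change of genes with low values is understated.

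Psmb10 had 9.68, 8.58 and 7.27 FPKM in WT and 13.9, 15.2 and 9.45 in KO. Its groups overlapped through the library labelled KO replicate 3, which lay below WT replicate 1. The log2 fold change was 0.53 (SE 0.19; adjusted p = 0.130, limma). Psmb9 had 1.09, 0.842 and 0.560 FPKM in WT and 0.468, 1.48 and 1.06 in KO, with overlapping groups and no test at this level.

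**Figure D2:**
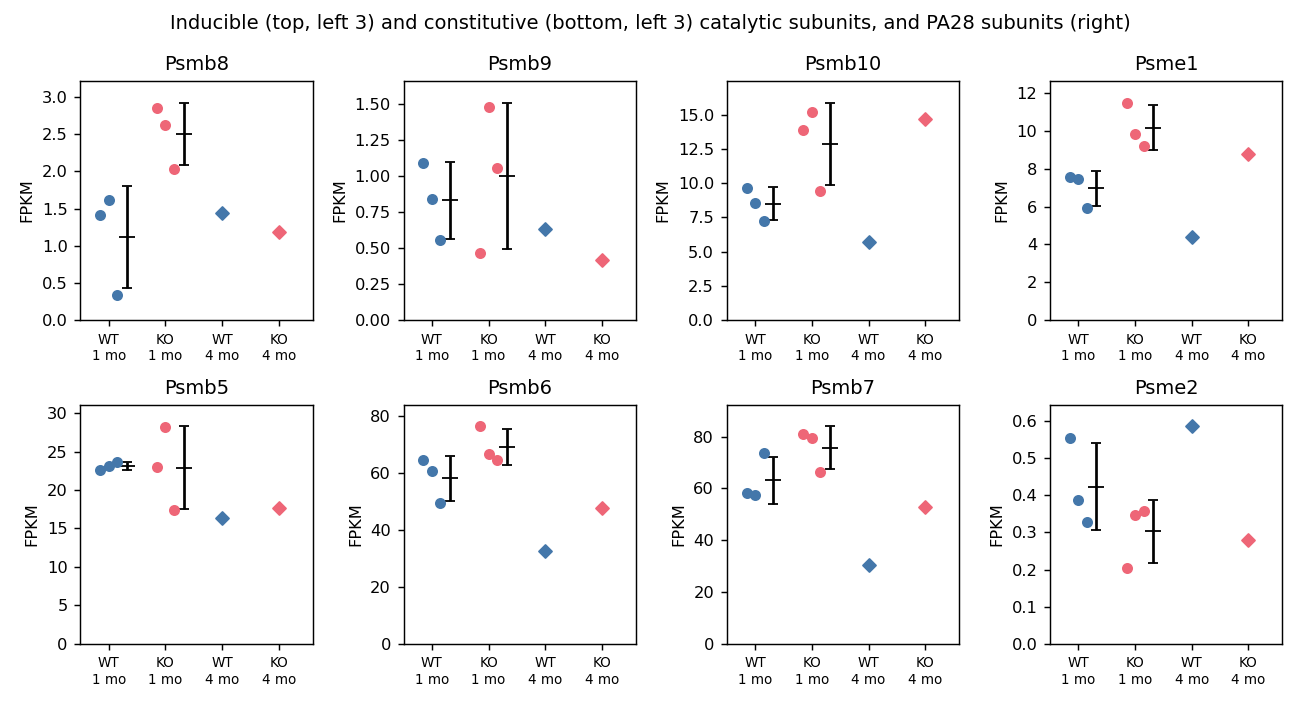
FPKM of the inducible subunits (top, left 3 panels), of the constitutive subunits they replace (bottom, left 3 panels) and of the PA28 subunits (right), on axes that start at 0. Circles are libraries at 1 month with the mean ± SD beside them (n = 3), and diamonds are single libraries at 4 months. Psmb8 and Psme1 do not overlap between WT and KO at 1 month.

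The exchange of subunits was followed by the ratio of each inducible gene to the constitutive gene it replaces. Psmb8 reached 6.24%, 7.03% and 1.44% of Psmb5 in WT and 12.4%, 9.31% and 11.7% in KO at 1 month. All 3 KO ratios were above all 3 WT ratios, a difference of 1.47 on the log2 scale (exact permutation test, two-sided, p = 0.1, the smallest that 3 against 3 libraries allow, and 0.3 after Benjamini-Hochberg adjustment over 3 ratios). WT replicate 3 carries part of it, since without that library the difference was 0.74. Psmb10 stood at 16.7%, 14.9% and 9.86% of Psmb7 in WT and at 17.1%, 19.1% and 14.3% in KO. These ratios overlapped, with a log2 difference of 0.31 (exact permutation p = 0.4, adjusted 0.6). Psmb9 stood at 1.69%, 1.39% and 1.13% of Psmb6 in WT and at 0.612%, 2.22% and 1.63% in KO, with the KO libraries on both sides of WT (-0.09, exact permutation p = 0.9, adjusted 0.9). In all 8 libraries the constitutive gene of each pair was the higher one.

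Cells known for inducible subunits were looked at by their markers. All 9 microglia markers were higher in KO at 1 month without overlap, and their sum ran from 75.0 to 103 FPKM in WT and from 182 to 253 in KO. At 4 months the sums were 88.0 in WT and 174 in KO. Markers of myeloid cells from blood summed to between 4.50 and 10.3 FPKM in WT and between 31.0 and 59.1 in KO at 1 month. At 4 months they summed to 48.8 in WT and 18.7 in KO, the other way round. The 4 T cell markers were each under 1 FPKM in every library, and their sum was 0.674 at most. B cell markers summed to between 0.336 and 0.539 FPKM in WT and between 0.430 and 2.67 in KO at 1 month, which overlapped. At 4 months they summed to 0.366 in WT and 0.605 in KO. The part of these cells in the values of Psmb8, Psmb10 and Psme1 was not tested.

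Among activators, Psme1 stood out. It had 7.55, 7.44 and 5.90 FPKM in WT and 11.5, 9.81 and 9.20 in KO at 1 month. Every KO library lay above every WT library, with means of 6.96 ± 0.922 and 10.2 ± 1.18 (SD, n = 3 each). On the log2 scale the difference was 0.49 (SE 0.14, adjusted p = 0.0875, limma), and Psme1 was the one member under 10%. It was no longer under 10% when WT replicate 1, 2 or 3 or KO replicate 1 or 2 was left out. In those fits between 0.00672% and 3.28% of all genes passed 10%, against 16% with no library left out. Psme2, the partner of Psme1, had 0.554, 0.388 and 0.327 FPKM in WT and 0.205, 0.347 and 0.357 in KO, which overlapped. Psme4 had 28.1, 27.2 and 38.3 FPKM in WT and 21.5, 22.9 and 27.5 in KO. Only the library labelled KO replicate 3 reached into the WT range, and the log2 fold change was -0.36 (SE 0.17; adjusted p = 0.194, limma). Psme3 was near WT at 0.09 (SE 0.12), as was the inhibitor gene Psmf1 at -0.07 (SE 0.10).

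Assembly chaperones were split, with 4 positive and 3 negative fold changes and a median of 0.02. Psmg2, which pairs alpha subunits at the start of assembly, had 14.7, 13.7 and 13.1 FPKM in WT and 12, 12.2 and 9.43 in KO. All KO libraries were lower than all WT libraries, with a log2 fold change of -0.29 (SE 0.13; adjusted p = 0.181, limma). Psmg3 also did not overlap, at -0.15 (SE 0.10). Psmc3ip, which is no subunit, had 1.81, 2.55 and 1.74 FPKM in WT and 0.728, 1.06 and 2.06 in KO. Here KO replicates 1 and 2 were low and the library labelled KO replicate 3 lay inside the WT range (log2 fold change -0.44, SE 0.23; adjusted p = 0.229, limma).

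Results at 1 month hinged on the library labelled KO replicate 3. Without it 10 members passed an adjusted p of 0.05 in limma, where 34.1% of all genes passed, 14.2% as higher and 19.9% as lower. Higher were 9 members, namely Psmb1, Psmb10, Psmc1, Psmc5, Psmc6, Psmd1, Psmd12, Psmd4 and Psme1. Only Psmc3ip was lower among the members in that fit (-0.67, SE 0.16; adjusted p = 0.0255). Psmb10 rose by 0.72 (SE 0.13; adjusted p = 0.0141) and Psmd1 by 0.47 (SE 0.09; adjusted p = 0.0139). Psmc5 rose by 0.57 (SE 0.13; adjusted p = 0.0236) and Psme1 by 0.55 (SE 0.14; adjusted p = 0.0319). Psmb8 stood at 0.87 (SE 0.30; adjusted p = 0.0761). With 2 KO libraries left, the spread rests on few libraries.

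Genes that work with the proteasome were taken from 4 lists, of which Paaf1 and Bag6 found no symbol in the table, and 0 of their members passed an adjusted p of 0.05 at 1 month in limma, while 16 reached an unadjusted p under 0.05, 13 of them higher and 3 lower, where 14% of all genes were higher and 17.2% lower. At that unadjusted cutoff 6 of 11 tested genes of the MHC class I list were higher, and 4 of 16 partners. Higher were also 2 of 12 genes of interferon signalling and 1 of 14 of ubiquitin supply and delivery. The lists were not tested as sets. At an adjusted p under 10% the share of all genes was 16%, and 7.97% as higher. In the list of partners, assembly and transcription factors, 1 of 16 genes was higher and 1 lower at an adjusted p under 10%, with a list median of 0.10. Fbxo7, a ubiquitin ligase adaptor that binds the inhibitor encoded by Psmf1, had 11.3, 11.3 and 11.7 FPKM in WT and 17.3, 18.7 and 15.5 in KO (log2 fold change 0.54, SE 0.11; adjusted p = 0.0648, limma). Zfand5, which binds the proteasome and speeds degradation, had 68.8, 69.4 and 100 FPKM in WT and 40.7, 45.2 and 51.8 in KO (-0.76, SE 0.18; adjusted p = 0.0751, limma). Neither overlapped between groups. Nfe2l1, the transcription factor that drives subunit genes when the proteasome is impaired, had 58.6, 50.0 and 47.1 FPKM in WT and 80.6, 82.2 and 59.6 in KO. Its groups did not overlap and its log2 fold change was 0.50 (SE 0.16; adjusted p = 0.107, limma). Nfe2l2, which answers oxidative stress, stood at 0.38 (SE 0.12; adjusted p = 0.109, limma).

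Of 14 tested genes of ubiquitin supply and delivery 0 passed at 10%, and the list median was 0.04. The ones with the smallest p were Sqstm1, a receptor that carries ubiquitinated proteins to autophagy (0.37, SE 0.14; adjusted p = 0.137, limma), the unfoldase gene Vcp (0.18, SE 0.11), its cofactor Nploc4 (0.11, SE 0.10) and the ubiquitin activating enzyme Uba6 (0.10, SE 0.10).

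Genes downstream of the immunoproteasome, in the MHC class I peptide pathway, were positive in 9 of 11 tested, with a list median of 0.37, and 2 were higher at 10%. H2-K1, a class I heavy chain, had 10.2, 10.5 and 4.14 FPKM in WT and 23.7, 22.9 and 17.0 in KO, with no overlap (1.33, SE 0.33; adjusted p = 0.0776, limma). Tapbp, which helps load peptides, had 10.6, 11 and 8.0 FPKM in WT and 14.7, 15.7 and 17.6 in KO, also with no overlap (0.65, SE 0.15; adjusted p = 0.0707, limma). The light chain gene B2m stood at 0.88 (SE 0.31; adjusted p = 0.119) and the peptide trimming enzyme Erap1 at 0.37 (SE 0.12; adjusted p = 0.108, limma). Low values in WT replicate 3 recur in B2m (35.9 FPKM against 86.0 and 72.0), H2-K1 and Psmb8. H2-D1, another class I heavy chain, was near WT at -0.02 (SE 0.17), with overlapping groups. In the single pair of libraries at 4 months 5 of the 11 genes were positive and 6 negative, with a median of -0.06. Reads of H2-K1 could be shared with related class I genes.

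Interferon signalling, which induces Psmb8, Psmb9, Psmb10 and Psme1, gave 7 positive and 5 negative fold changes with a median of 0.10. Irf1, the factor that interferon gamma induces, had 1.58, 1.70 and 1.31 FPKM in WT and 2.96, 3.07 and 2.59 in KO. The groups did not overlap (0.62, SE 0.11; adjusted p = 0.0640, limma). Irf8, a factor of myeloid cells, was higher at 10% as well (0.74, SE 0.19; adjusted p = 0.0822), while the kinase gene Tyk2 was lower (-0.42, SE 0.13; adjusted p = 0.0959, limma). Stat2, which carries signals of type I interferon, had 16.2, 15.9 and 17.7 FPKM in WT and 6.18, 5.56 and 15.1 in KO. KO replicates 1 and 2 were low and the library labelled KO replicate 3 was close to WT (-0.95, SE 0.33; adjusted p = 0.119, limma).

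Age was the second comparison, with 4 months set against 1 month in all 8 libraries and genotype as a term. Of 45 tested members 42 had a negative fold change, where 61.1% of all 14918 genes did, and the median log2 was -0.43 against -0.10 for all genes. At an adjusted p of 0.05, 3 members fell (limma), where 1.98% of all genes passed and 1.23% fell. At 10%, 12 members were lower, where 6.61% of all genes were. The 3 that fell were Psmc5, Psma6 and Psmg3, an ATPase, an alpha subunit and a chaperone.

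**Figure D3:**
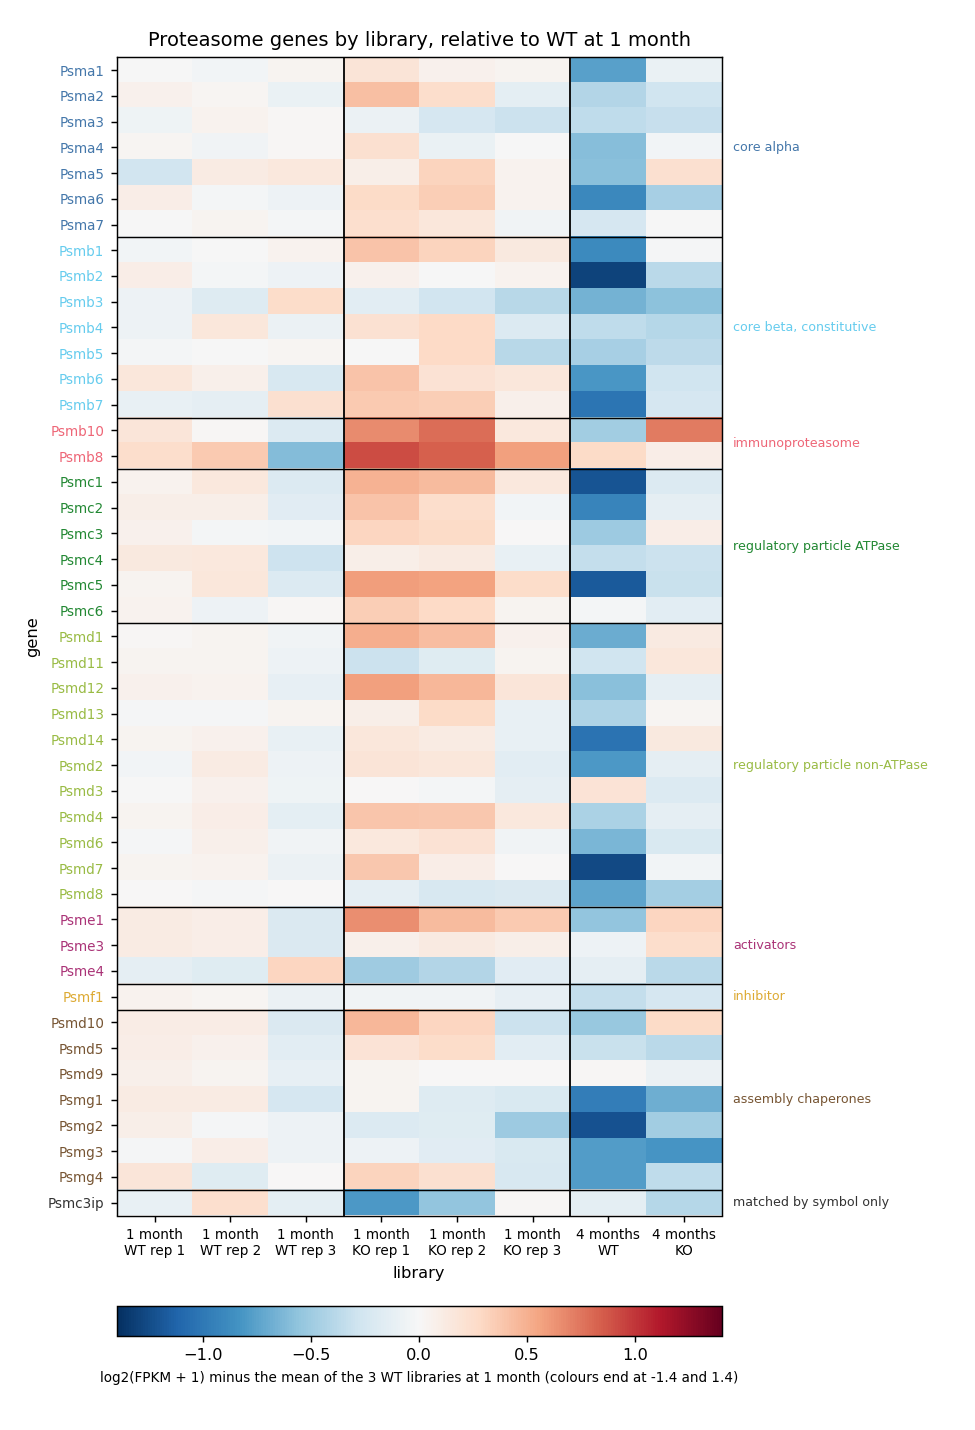
Difference of log2(FPKM + 1) from the mean of the 3 WT libraries at 1 month, for 45 members (rows, grouped by role) in 8 libraries (columns). KO replicates 1 and 2 are mostly above WT, the library labelled KO replicate 3 is close to WT, and the 4-month WT library is the lowest column, with a median of -0.58.

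Psmc5 stood at 36.9 FPKM in the 4-month WT library, against 73.9 to 94.8 in WT at 1 month. In KO it stood at 68.3 at 4 months against 101 to 128 at 1 month. Both 4-month libraries lay below all libraries of their genotype at 1 month, and the log2 fold change was -0.98 (SE 0.17; adjusted p = 0.0441, limma). Psma6 stood at 26.9 FPKM in WT and 36.8 in KO at 4 months, against 54.6, 50.2 and 48.8 in WT and 61.7, 65.2 and 53.1 in KO at 1 month. It was likewise lower in both genotypes (-0.79, SE 0.14; adjusted p = 0.0441, limma). Psmg3 stood at 4.07 and 3.90 FPKM at 4 months, against 7.61, 8.28 and 7.28 in WT and 7.28, 6.83 and 6.53 in KO at 1 month, below them all (-0.73, SE 0.12; adjusted p = 0.0441, limma). Psmc1 (-0.88, SE 0.19; adjusted p = 0.0607) and Psmb2 (-0.86, SE 0.20; adjusted p = 0.0631, limma) had larger fold changes than Psma6 and Psmg3 and did not pass.

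These 3 calls were sensitive to single libraries. No member passed 0.05 without WT replicate 1, WT replicate 2, WT replicate 3, KO replicate 1 or KO replicate 2, where between 2 and 5 of all genes passed. There were 6 without the library labelled KO replicate 3, where 3.7% of all genes passed. There were 2 without the 4-month WT library, where 15.3% of all genes passed and 8.26% were lower, and 16 without the 4-month KO library, where 10.3% passed and 6.57% were lower. All of these members were lower. With libraries shifted to 1 median, which moves the all-gene median from -0.10 to 0.00068, 0 members passed, where 1.43% of all genes did, and the members' median was -0.32. The 4-month WT library also had the largest share of its FPKM in small RNA symbols, 40.1%, and the 4-month KO library had the smallest, 8.15%. At 1 month the share ran from 26.6% to 38.0% in WT and from 20.5% to 39.4% in KO, the highest in KO replicate 2. Granule neuron markers summed to 833 FPKM in WT and 36.5 in KO at 4 months, and oligodendrocyte markers to 2049 and 1220, against 3064 to 5972 in WT and 4151 to 7029 in KO at 1 month. Brainstem markers summed to 40.9 FPKM in WT and 3.23 in KO at 4 months, the reverse of 1 month. The part of the small RNA share and of cell makeup in the members' values was not tested.

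By role, all 7 alpha subunits, all 7 constitutive beta subunits, all 6 ATPases and all 7 chaperones had negative fold changes with age. The medians were -0.34, -0.60, -0.48 and -0.62 in that order. At 4 months Psmb5 had 16.4 FPKM in WT and 17.7 in KO, Psmb6 had 32.5 and 47.7, and Psmb7 had 30.3 and 53.0. Each of these but Psmb5 in KO lay below all libraries of its genotype at 1 month. Psmb7 stood at -0.76 (SE 0.18), Psmb6 at -0.67 (SE 0.16) and Psmb5 at -0.40 (SE 0.18), with adjusted p-values of 0.0663, 0.0658 and 0.220 (limma). Among inducible subunits the fit over both genotypes gave -0.21 (SE 0.31) for Psmb8 and -0.14 (SE 0.23) for Psmb10, which average opposite moves. The 4-month library differed from the 1-month mean by 0.26 in WT and -0.68 in KO for Psmb8. For Psmb10 the differences were -0.49 in WT and 0.20 in KO. Their signs turned with the libraries used, Psmb8 to 0.26 without the 4-month KO library and Psmb10 to 0.20 without the 4-month WT library. Psme1 stood at -0.37 (SE 0.16; adjusted p = 0.202, limma). The only positive members were Psme3 (0.05, SE 0.14), Psmd3 (0.03, SE 0.13) and Psmd11 (0.01, SE 0.17), and each turned negative under at least 1 other choice of libraries. Psme3 had 24.2, 23.8 and 19.3 FPKM in WT and 23.4, 24.5 and 23.7 in KO at 1 month, and 21.3 and 26.7 at 4 months. Psmd3 had 39.5, 41.4 and 38.0 in WT and 39.6, 38.7 and 36.1 in KO at 1 month, and 45.3 and 34.6 at 4 months. Psmd11 had 12.4, 12.4 and 11.4 in WT and 9.60, 10.6 and 12.4 in KO at 1 month, and 9.78 and 13.6 at 4 months. In Psme3 and Psmd11 the 4-month KO library was the highest of all 8, and in Psmd3 the 4-month WT library was. Of the partners, Shfm1, which encodes a small subunit of the regulatory particle, fell (-0.80, SE 0.14; adjusted p = 0.0441, limma).

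Other large, widely expressed complexes were set beside the proteasome, from lists chosen after seeing the data. The 42 tested genes of respiratory complex I had an age median of -0.67, all negative, and 7 of them fell at an adjusted p of 0.05. The 62 tested ribosomal protein genes had a median of -0.34, with 55 negative and 0 called (limma; 22 lower at an unadjusted p under 0.05). The members' -0.43 lay between these medians.

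Within each genotype, the 4-month WT library was below all 3 WT libraries of 1 month in 38 of 45 members, where this held for 47% of all genes, and above all of them in 1 (29.4% of all genes). In KO the 4-month library was below in 29 members, where this held for 42.5% of all genes, and above in 2 (28.3% of all genes). The median log2 difference was -0.58 in WT and -0.29 in KO. Summed FPKM of the 49 members was between 1396 and 1498 in WT at 1 month and 945 in WT at 4 months. In KO the sums were 1451 to 1752 at 1 month and 1288 at 4 months.

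**Figure D4:**
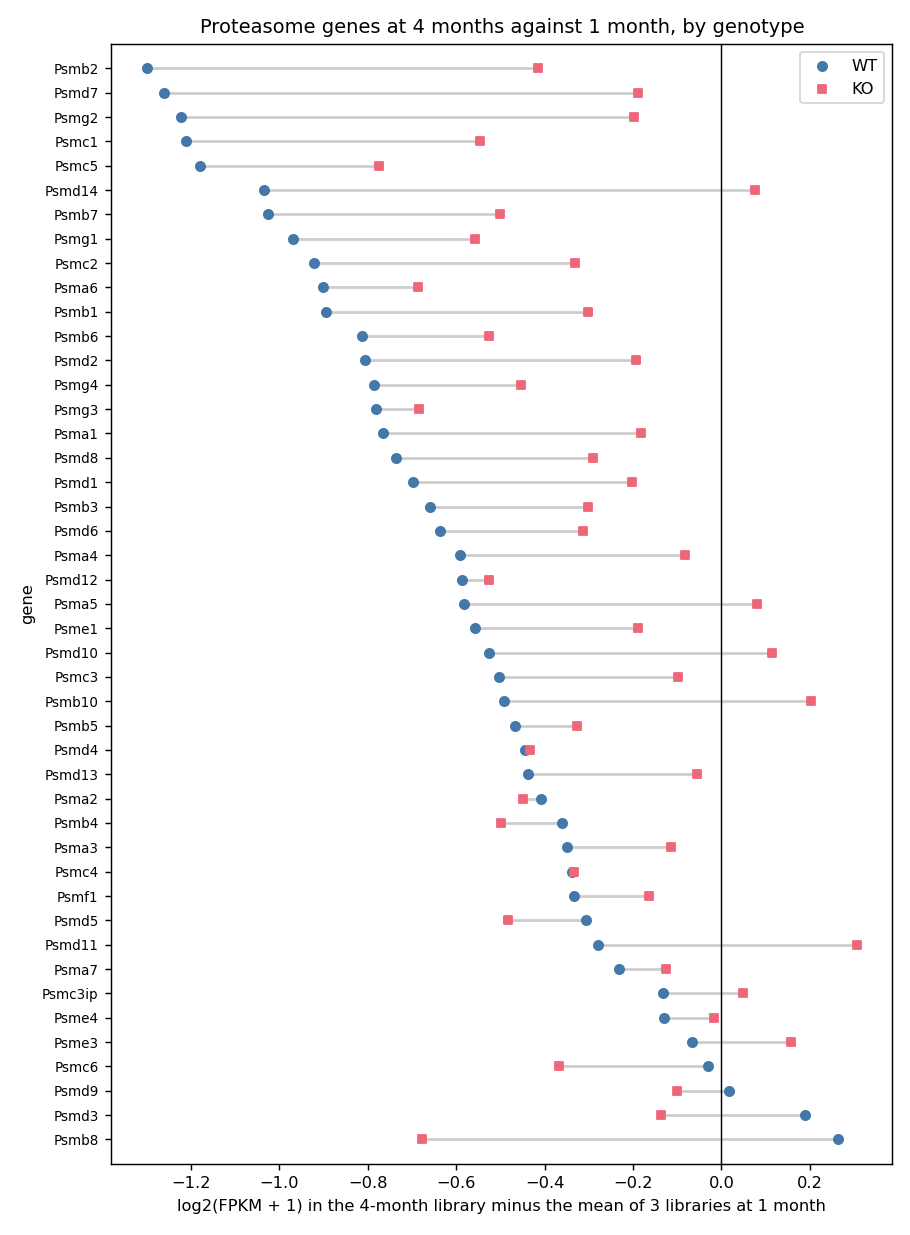
Log2(FPKM + 1) in the single 4-month library minus the mean of the 3 libraries of the same genotype at 1 month, for 45 members sorted by the WT value (circles WT, squares KO). WT circles reach -1.30 in Psmb2, and KO squares are mostly nearer to 0.

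Genotypes at 4 months could be compared only as single libraries, with no replicate error and no p-value. KO was above WT in 36 of 45 members and below in 9, with a median log2 difference of 0.44 against -0.01 for all genes, of which 49.7% were above. A difference of at least 1 was reached by 4 members, all higher in KO, where 9.57% of all genes were higher by that much and 11.2% lower. Psmd7 stood at 13.5 FPKM in WT and 33.0 in KO (1.23). Psmb10 stood at 5.73 and 14.7 (1.22), Psmd14 at 16.0 and 37.1 (1.17) and Psmc1 at 14.9 and 31.2 (1.02). In all 4 genes the 4-month WT library lay below every library of either genotype at 1 month. Psmd7 had 34.7, 34.9 and 31.9 FPKM in WT and 44.1, 36.0 and 33.9 in KO at 1 month. Psmd14 had 34.7, 35.3 and 31.4 in WT and 38.0, 36.6 and 31.3 in KO at 1 month.

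In the other direction Psmd3 stood at 45.3 FPKM in WT and 34.6 in KO (-0.38), Psmc3ip at 1.75 and 1.29 (-0.26) and Psme4 at 28.1 and 23.5 (-0.25). Psmb8 stood at 1.45 in WT and 1.18 in KO (-0.17), and Psmb9 at 0.633 and 0.415. Psme1 stood at 4.39 and 8.76 (0.86). Ratios of inducible to constitutive genes were 8.81% in WT and 6.65% in KO for Psmb8 to Psmb5, and 18.9% and 27.7% for Psmb10 to Psmb7. Ribosomal protein genes had a median difference of 0.51 and complex I genes one of 0.37 in the same pair of libraries.

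Whether the genotypes differed in their change with age was tested by an interaction term, which takes its spread from the 1-month libraries alone (4 residual degrees of freedom) and assumes that single 4-month libraries vary like them. In limma 3 members passed an adjusted p of 0.05, all with KO higher relative to WT at 4 months than at 1 month, where 11.5% of all genes passed and 6.13% did so in that direction. They were Psmd14 (1.11, adjusted p = 0.0334), its binding partner in the lid Psmd7 (1.07, adjusted p = 0.0454) and the beta subunit gene Psmb2 (0.88, adjusted p = 0.0378). Psmb2 stood at 56.9, 52.4 and 50.6 FPKM in WT and 55.7, 53.0 and 55.0 in KO at 1 month, and at 21.0 in WT and 40.6 in KO at 4 months. In each of the 3 genes the 4-month WT library was lower than all the others. The 3 of 45 members called are a share close to that of all genes in that direction, and nothing is read from it about the members.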

How the data were processed

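RNA of mouse cerebellum was measured in 8 libraries, and the 29 chromatin samples of the series were not analysed here. The submitters' processing notes name Bowtie 1.1.2, TopHat2 2.1.0, Cuffdiff and the mm9 build. Expression was deposited by the authors as FPKM in 1 table. Which annotation, strand setting, filters and scaling were used is not stated in the sources used here. Since FPKM is no read count, depth in reads cannot be had, and counting intervals are left out. The table held 29955 symbols and 1 repeated header, which was removed. Columns of no sample numbered 0.

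Tests used limma 3.58.1 in R 4.3.3 on log2(FPKM + 1), for genes whose mean reached 1 FPKM over the libraries of a fit, with Benjamini-Hochberg adjustment over all genes tested. Ratios of inducible to constitutive genes were computed from the deposited FPKM and compared by exact permutation. The scripts were tested on simulated data. Promoter sequences and annotation are RefSeq, GRCm38.p6, which differs from mm9 and served for names, neighbours and sequence. All 49 members were found there, 41 with a promoter.

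The members and lists were chosen with earlier results of these data known. The genes described by their values in the libraries were the catalytic and inducible subunits, Psme1, Psme2, members past the threshold and the 3 largest changes in each direction, and others singled out after their values were seen. Up to 4 genes with the smallest p were named per pathway list, and H2-D1 and Shfm1 were named besides. Alternatives covered pseudocount, filter, scaling, weights, trend, the replicate number as a block and leaving out libraries. Same-numbered WT and KO libraries had correlations of their deviations of 0.17, 0.03 and 0.04, so the numbers were not taken to pair them.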

Additional observations from a re-analysis of the deposited data

Results flagged for a closer look

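For 3 members the change of genotype with age differed by the interaction term in limma, which rests on 1 library per genotype at 4 months. These were Psmd14 (1.11 on the log2 scale, adjusted p = 0.0334), Psmd7 (1.07, adjusted p = 0.0454) and Psmb2 (0.88, adjusted p = 0.0378), where 6.13% of all genes passed in that direction and 11.5% in either, so their number is near the background. In 4 others all 3 KO libraries lay on 1 side of WT at 1 month and the single 4-month pair lay on the other side. Psmb8 was higher in KO at 1 month (0.78) and at -0.17 at 4 months. Psmg2 was lower at 1 month (-0.29) and at 0.74 at 4 months. Psmd8 went from -0.18 to 0.26 and Psma3 from -0.21 to 0.030. The interaction did not pass for these 4, with adjusted p-values of 0.278, 0.0504, 0.163 and 0.491 (limma). At 1 month each of these directions includes the library labelled KO replicate 3. No explanation was tested.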

How the results depend on the processing

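The count of members past an adjusted p of 0.05 at 1 month, 0 as reported, was 17 with array weights, where 54.5% of all genes passed, and ran from 0 to 10 when 1 library was left out, the highest without the library labelled KO replicate 3, where 34.1% of all genes passed. At 10% the reported count of 1 stood beside 16% of all genes. It was 0 with a pseudocount of 0.1 (9.18% of all genes) or no filter (6.56%), and 2 with libraries shifted to 1 median (15.7%). It was 3 with a filter of 5 FPKM (20.9%), quantile normalization (13.7%), a trend (18.4%) or all 8 libraries with age (10.3%). With array weights it was 26 (63.1%). It was 17 without the library labelled KO replicate 3 (45%) and 0 without any other single library (0.00672% to 3.28%). With the replicate number as a block it was 6 at 10%, beside 18.2% of all genes, and 0 at 0.05. For age the reported count of 3 (1.98% of all genes) was 1 with a pseudocount of 0.1 (1.09%) and 8 with a filter of 5 FPKM (6.5%). It was 0 with libraries shifted to 1 median (1.43%), array weights (0.0134%) or replicate 3 of both genotypes left out (0.0404%). With 1 library of 1 month left out it was 6 without the library labelled KO replicate 3 (3.7%) and 0 without any other (0.0134% to 0.0336%). With WT libraries only, or without the 4-month KO library, the members' median log2 was -0.58. Genes of the 4 pathway lists passing at 1 month, 0 as reported, were 25 with array weights, beside the same 54.5%. They were 0 to 15 with 1 library left out, 15 beside the same 34.1%. The cause of these moves was not tested.

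Some small differences changed sign. Psmb5 at 1 month was 0.034 with libraries shifted to 1 median, 0.029 with quantile normalization and 0.16 with array weights, and ran from -0.20 to 0.14 with 1 library left out. With age, Psmb8 was 0.26 with WT libraries only or without the 4-month KO library, and Psmb10 was 0.20 without the 4-month WT library. Psme3 was -0.066 with WT only or without the 4-month KO library and -0.0074 without replicate 3 of both genotypes. Psmd3 was -0.0090 with array weights, -0.0079 without replicate 3 of both genotypes and -0.14 without the 4-month WT library. Psmd11 was -0.28 with WT only or without the 4-month KO library, -0.041 without KO replicate 1 and -0.0091 without KO replicate 2, and ran from -0.041 to 0.040 with 1 library of 1 month left out. The ratio of Psmb9 to Psmb6 was 0.06 without WT replicate 1 and 0.46 without KO replicate 1, and ran from -0.47 to 0.46 with 1 library left out. Members near or under 1 FPKM (Psmb8, Psmb9, Psme2) are limited by depth.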
